A study of Mus musculus with 31 samples.

Results

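The Dlk1-Dio3 locus of mouse chromosome 12 holds a large cluster of imprinted miRNAs, and 79 of the 507 mature miRNAs in the small-RNA-seq table came from it. They were chosen by name, as every arm of the miRNA numbers known from this cluster. Of the 49 numbers searched, 43 had a row, and miR-136, miR-299, miR-337, miR-544, miR-654, and miR-1188 were not analysed here. The 79 members were 37 5p arms and 42 3p arms.

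The cells were mouse embryonic stem cells (mESCs) of the line ES-E14TG2a, grown in 2i and Lif, and 16 small-RNA libraries were made, 4 per genotype. WT mESCs carried a FLAG tag on both alleles of Trim71, an RNA-binding repressor of mRNAs, and the other genotypes were compared with them. CLIPΔ mESCs lacked, on both alleles, the stretch of the *Ago2* 3′ UTR that Trim71 binds. *Ago2* encodes an Argonaute protein, which holds miRNAs. *Ago2* KO mESCs had lost *Ago2* through a pair of guides in its coding region, and *Ago2* KO/CLIPΔ mESCs carried both changes. For RNA-seq there were 2 WT libraries, 2 CLIPΔ libraries, and 4 of each genotype without *Ago2*. The study made 2 independent CLIPΔ clones, edited lines were grown from single cells, and which library came from which clone is not given in the sources used here, so that a genotype and its clones cannot be told apart. The labels call the libraries biological replicates but do not say whether they came from separate cultures, so p-values measure the spread between libraries, which may be technical.

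In an imprinted locus only the copy from one parent is used. At Dlk1-Dio3 the paternal copy gives the protein-coding genes Dlk1, Rtl1, and Dio3. The maternal copy gives the long non-coding RNAs Meg3, Rian, and Mirg and the transcript antisense to Rtl1, and the miRNA hairpins lie in these RNAs. In pluripotent mouse cells the cluster is known as a marker of whether the imprint was kept, since its maternal RNAs are lost when the maternal copy is methylated like the paternal one. A hairpin can give a mature miRNA from its 5p arm and another from its 3p arm. The seed, bases 2 to 8 of the miRNA, pairs with target mRNAs.

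RefSeq placed 76 of the 79 members, in GRCm38.p6, between bases 109563710 and 109743784 of chromosome 12, a stretch of 180 kb. Of these, 75 lie on the plus strand, the strand of the maternal RNAs. The exception is miR-3071-3p, on the minus strand opposite the hairpin of miR-136. Whether the counting used strand is not given in the sources used here, so its reads cannot be told apart from reads of that hairpin. By hairpin number, which also places the 3 members without a RefSeq position, 18 members were put in the Meg3 and anti-Rtl1 unit, 4 in the Rian unit, and 57, all the rest, in the Mirg unit. Positions were not used for this, so a member of the Mirg unit need not lie within the annotated Mirg RNA.

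The sequences below are from RefSeq, written 5′ to 3′ with the seed in capitals. The first set holds the members with the highest mean level, and the other arm of the most abundant hairpins.

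miR-127-3p: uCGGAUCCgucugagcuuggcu
miR-127-5p: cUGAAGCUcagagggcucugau
miR-541-5p: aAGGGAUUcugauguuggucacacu
miR-541-3p: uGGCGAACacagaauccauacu
miR-379-5p: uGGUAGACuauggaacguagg
miR-379-3p: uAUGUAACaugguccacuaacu
miR-409-3p: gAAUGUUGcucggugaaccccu
miR-411-5p: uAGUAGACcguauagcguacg
miR-411-3p: uAUGUAACacgguccacuaacc
miR-381-3p: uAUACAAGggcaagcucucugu
miR-434-5p: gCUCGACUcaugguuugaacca
miR-543-3p: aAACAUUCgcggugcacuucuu

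The second set holds further members with a large change in at least 1 of the comparisons.

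miR-431-5p: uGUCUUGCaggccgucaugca
miR-154-5p: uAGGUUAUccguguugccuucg
miR-369-3p: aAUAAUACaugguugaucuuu
miR-369-5p: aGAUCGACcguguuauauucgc
miR-666-5p: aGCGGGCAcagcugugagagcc
miR-376b-5p: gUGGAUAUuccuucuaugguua
miR-376b-3p: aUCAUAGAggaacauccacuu
miR-341-3p: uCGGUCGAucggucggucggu
miR-494-3p: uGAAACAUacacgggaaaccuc
miR-409-5p: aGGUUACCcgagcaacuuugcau
miR-370-3p: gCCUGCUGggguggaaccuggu
miR-1193-3p: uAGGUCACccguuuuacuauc
miR-377-5p: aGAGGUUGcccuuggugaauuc
miR-673-3p: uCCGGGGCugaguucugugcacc
miR-673-5p: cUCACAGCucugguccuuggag
miR-300-5p: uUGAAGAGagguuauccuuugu
miR-300-3p: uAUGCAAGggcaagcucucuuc
miR-380-3p: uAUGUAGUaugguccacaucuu
miR-758-3p: uUUGUGACcugguccacua
miR-665-3p: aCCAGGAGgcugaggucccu

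The last set holds members that share a seed with one already shown.

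miR-370-5p: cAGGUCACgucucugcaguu
miR-1193-5p: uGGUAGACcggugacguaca

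The members miR-376c-3p and miR-487b-3p also belong to the second set. The seed AGGUCAC was shared by miR-370-5p and miR-1193-3p, AUGUAAC by miR-379-3p and miR-411-3p, GGUAGAC by miR-379-5p and miR-1193-5p, and GGUUGUC by miR-494-5p and miR-410-5p. Each of these seeds belonged to 2 of the miRNAs in the table with a known sequence, both of them members. The arms miR-379-3p and miR-411-3p differed at 2 of 22 bases, as U10C and U22C. The arms miR-300-3p and miR-381-3p differed at 3 of 22 bases, as G4A, U21G, and C22U, counted from the 5′ end with the base of the first-named miRNA first, so that their seeds differed by 1 base.

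The targeted gene was read first in the RNA-seq. *Ago2* mRNA was at 28.2 and 21.6 TPM in WT, at 27.3 and 20.3 TPM in CLIPΔ, between 1.67 and 2.29 TPM in *Ago2* KO, and between 1.51 and 2.87 TPM in *Ago2* KO/CLIPΔ. The KO labels and this gene therefore went together in all 12 libraries. Of the 8 pluripotency markers looked up, 7 were in the table, and their summed level was between 9396 and 12578 TPM in all libraries. Summed markers of fibroblasts reached at most 3.73 TPM and those of primitive endoderm at most 6.22 TPM. Those of trophoblast reached 144 TPM, led by Krt8, and Elf5 was under 0.1 TPM throughout. Neural markers summed to between 114 and 118 TPM in WT, and to between 125 and 176 TPM in the other genotypes, and their part in the results was not tested. The small-RNA libraries held an inferred 5411246 to 8349737 reads in WT, 3133864 to 7889709 in CLIPΔ, 829063 to 1070289 in *Ago2* KO, and 874134 to 1327971 in *Ago2* KO/CLIPΔ. The shallow libraries were all those without *Ago2*, so *Ago2* loss and the library set cannot be told apart. CLIPΔ against WT and *Ago2* KO/CLIPΔ against *Ago2* KO were each compared at nearer depth. However, CLIPΔ D, at 3133864 reads, lay under every WT library.

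The locus supplied a large part of the miRNA pool of these mESCs, and that part was lowest in CLIPΔ and highest in *Ago2* KO/CLIPΔ. The members summed to 12.4%, 11.8%, 12.5%, and 15.2% of all miRNA TPM in the WT libraries A to D. They summed to 9.74%, 8.20%, 9.82%, and 11.6% in the CLIPΔ libraries A to D. They summed to 13.3%, 14.1%, 13.2%, and 13.6% in *Ago2* KO and to 24.3%, 25.1%, 23.9%, and 24.3% in *Ago2* KO/CLIPΔ. In such bulk libraries, fewer cells that express the locus and less RNA per cell cannot be told apart. The 4 *Ago2* KO/CLIPΔ libraries stood above all 12 others, and no CLIPΔ library reached the lowest WT library.

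**Figure D1:**
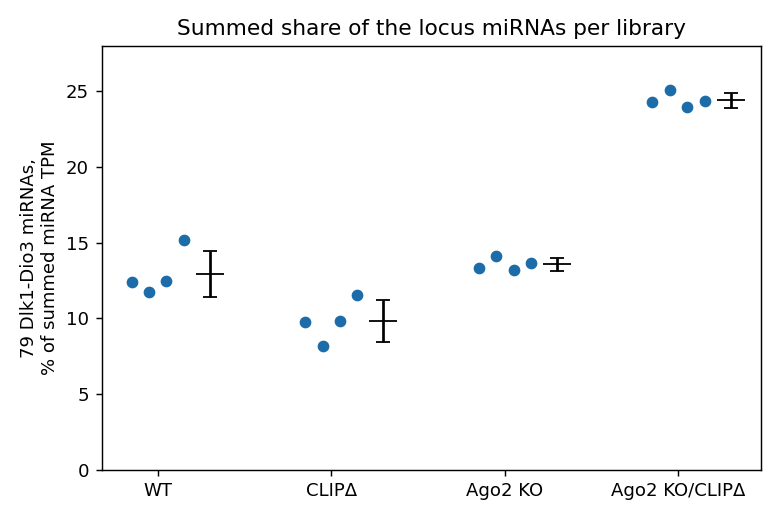
The plot gives the summed share of the 79 Dlk1-Dio3 miRNAs in each small-RNA library (y axis, percent of summed miRNA TPM) by genotype (x axis), with a point per library and the mean ± SD beside it. The *Ago2* KO/CLIPΔ libraries lie between 23.9% and 25.1%, above every other library, and the CLIPΔ libraries lie between 8.20% and 11.6%.

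As means, the share was 12.9% ± 1.51 (SD, n = 4) in WT, 9.83% ± 1.37 in CLIPΔ, 13.6% ± 0.411 in *Ago2* KO, and 24.4% ± 0.496 in *Ago2* KO/CLIPΔ. An exact two-sided permutation test over the libraries of each of 4 pairs of genotypes, adjusted over the 4 pairs, gave 0.0381 for CLIPΔ against WT, a difference of -3.11 percentage points. The unadjusted p was 0.0286, the smallest that 4 against 4 libraries allow. The difference of *Ago2* KO/CLIPΔ from *Ago2* KO was 10.9 points, a ratio of 1.80, and that from CLIPΔ was 14.6 points, a ratio of 2.49, with an adjusted p of 0.0381 by the same exact test for each. *Ago2* KO differed from WT by 0.624 points (adjusted exact p = 0.486). Without WT D, the highest WT library, that difference was 1.36 points with an exact p of 0.0286. Without any single WT library, or without CLIPΔ B, the exact p of CLIPΔ against WT was 0.0571, at differences from -3.51 to -2.38 points. The *Ago2* KO value also depends on the rest of the pool: the let-7 family with miR-98 and miR-290 to miR-295 took 44.5% to 46.2% of the pool in WT and 30.6% to 34.2% in *Ago2* KO, and with these left out of the total the difference was -3.60 points.

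By unit, the Meg3 and anti-Rtl1 members made up 5.07%, 3.77%, 4.92%, and 8.85% of the pool on average in WT, in CLIPΔ, in the *Ago2* KO, and in the double mutant *Ago2* KO/CLIPΔ, respectively. The Mirg members made up 7.67%, 5.92%, 8.28%, and 14.8% in the same order, and the Rian members between 0.131% and 0.735%. All 3 units were therefore lowest in CLIPΔ and highest in *Ago2* KO/CLIPΔ.

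A single member led the locus in every genotype. This was miR-127-3p, the arm processed from the transcript antisense to Rtl1, which made up 31.3% of the members' sum in WT, 28.8% in CLIPΔ, 26.6% in *Ago2* KO, and 25.6% in *Ago2* KO/CLIPΔ. It ranked sixth among all miRNAs in WT. The 5 most abundant members held between 61.5% and 64.4% of the members' sum in each genotype. The lowest WT mean was that of miR-541-3p, at 1.07 on the scale of TPM rescaled to sum to 1000000 per library (rescaled TPM, used for all miRNA levels from here on), against 40514 for miR-127-3p.

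The first comparison set CLIPΔ against WT, the genotypes with *Ago2*. In CLIPΔ the cluster was lower, by a small and uneven amount. A limma test was fitted to all miRNAs with a mean of at least 100 in these 8 libraries, on log2(rescaled TPM + 1). A member called higher or lower had an adjusted p under 0.05. The test covered 227 miRNAs and 46 members, and 9 members fell, against 8.37% of all tested miRNAs called lower and 19.4% called higher. The median log2 fold change was -0.39 over the members (SD across members 0.33) and 0.04 over all miRNAs tested. Of the 46 members, 39 had a negative log2 fold change and 12 had all CLIPΔ libraries under all WT libraries, against 9.69% of all tested miRNAs lower and 20.3% higher without overlap. Without WT B, 5 members were called lower, of 14 miRNAs called lower and 41 called higher among 230. Without each of WT A, WT C, and CLIPΔ C 6 were. All miRNAs called there were 12, 12, and 16 lower and 37, 36, and 37 higher among 228.

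The arm miR-127-5p was at 150, 178, 154, and 118 in WT A to D and at 90.2, 95.6, 64.4, and 48.5 in CLIPΔ A to D. The groups did not overlap, and its log2 fold change was -1.03 ± 0.25 (SE, limma adjusted p = 0.0113). The neighbouring hairpins miR-379 and miR-411, which open the Mirg unit, moved alike. Their 5p arms are close relatives, with the seeds GGUAGAC and AGUAGAC. The arm miR-379-5p was at 5379, 5651, 6009, and 4914 in WT and at 3533, 3394, 3448, and 2473 in CLIPΔ. Its log2 fold change was -0.78 ± 0.17 (limma adjusted p = 0.00687), and that of miR-411-5p was -0.81 ± 0.14 (limma adjusted p = 0.00206).

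The other 6 members that fell were miR-376b-5p (-0.96), miR-341-3p (-0.78), miR-376c-3p (-0.74), miR-154-5p (-0.69), miR-494-3p (-0.66), and miR-541-5p (-0.60), all as log2 fold changes, with limma adjusted p from 0.0115 to 0.0490. The calls of miR-494-3p and miR-541-5p were each lost without any 1 of 7 of the 8 libraries, the exceptions being CLIPΔ B for the first and CLIPΔ D for the second (limma adjusted p from 0.0564 to 0.132), that of miR-376c-3p without WT A, WT B, or CLIPΔ C (limma adjusted p from 0.0564 to 0.0664), and that of miR-341-3p without WT B or WT C (0.0517 and 0.0554 by limma). The leading member miR-127-3p was at 36454, 33443, 35957, and 56203 in WT and at 26850, 21853, 29101, and 35248 in CLIPΔ. WT D was far above the other WT libraries, CLIPΔ D lay within the WT range, and the log2 fold change of -0.51 ± 0.21 did not pass (limma adjusted p = 0.0966). At the other end, miR-431-5p gave -0.00 ± 0.17, and miR-485-3p gave 0.42 in a test it did not pass.

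WT and CLIPΔ libraries with the same letter deviated together, and taking the letter as a replicate block raised the number of calls. In each letter the summed share was lower in CLIPΔ, with differences from WT of -2.66, -3.56, -2.63, and -3.61 percentage points in A to D. Without regard to the filter, 40 of the 79 members were lower in CLIPΔ in all 4 letters and 5 were higher in all 4, against 21.7% and 36.7% of all 507 miRNAs. With the block, limma called 24 members lower, among them miR-127-3p (adjusted p = 0.0043), against 21.1% of all miRNAs called lower and 33.9% called higher, and 1 member, miR-485-3p, higher (adjusted p = 0.045). What the letters stand for is not given in the sources used here.

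The next comparison set *Ago2* KO/CLIPΔ against *Ago2* KO, the genotypes without *Ago2*. Here most members rose, within a narrow range of log2 fold changes. In a limma model over all 16 libraries, with 249 miRNAs and 50 members passing the filter, 47 members were higher in *Ago2* KO/CLIPΔ than in *Ago2* KO, against 19.3% of all tested miRNAs called higher and 2.81% called lower. These 47 were 97.9% of the 48 miRNAs called higher. The 1 other was miR-10b-5p, from outside the locus, with a mean of 1509 in *Ago2* KO and 5014 in *Ago2* KO/CLIPΔ. The median log2 fold change was 0.87 over the members tested and -0.14 over all miRNAs tested.

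**Figure D2:**
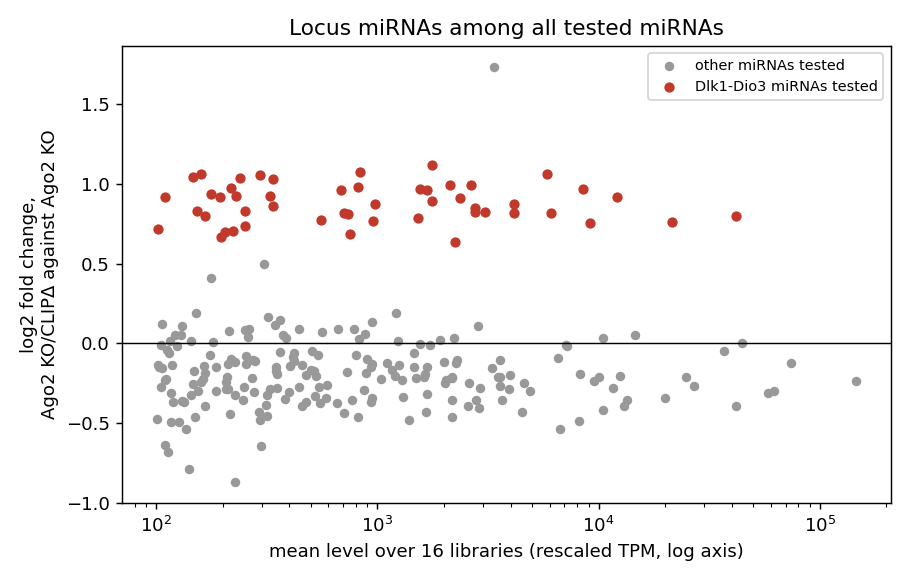
Each point is a miRNA tested in the 16-library model, with its mean level over the libraries on the x axis (rescaled TPM, log axis) and its log2 fold change in *Ago2* KO/CLIPΔ against *Ago2* KO on the y axis. The 50 locus miRNAs (red) form a band between 0.64 and 1.12 at every level, and most of the 199 others (grey) lie at or under 0.

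The spread across members was small. The log2 fold changes of the 50 ran from 0.64 to 1.12, with an SD of 0.12, against an SD of 0.33 for the members in CLIPΔ against WT. The medians were 0.87 in the Meg3 and anti-Rtl1 unit, 1.04 in Rian, and 0.86 in Mirg. The 5p arms had a median of 0.92 and the 3p arms one of 0.84. Among the 50, 49 were higher in every *Ago2* KO/CLIPΔ library than in every *Ago2* KO library, against 20.5% of all tested miRNAs. Tested without a filter, all 79 members had a positive log2 fold change, from 0.41 to 1.37, and 65 of the 79 did not overlap, against 13.6% of all 507 miRNAs.

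The leading member miR-127-3p was at 36318, 38264, 34596, and 34988 in *Ago2* KO and at 61942, 66158, 60417, and 61906 in *Ago2* KO/CLIPΔ. Both sets were narrow and far apart, with a log2 fold change of 0.80 ± 0.15 (limma adjusted p = 0.00074). A far less abundant member in *Ago2* KO, miR-431-5p, was at 128, 103, 106, and 80.9 in *Ago2* KO and at 225, 202, 249, and 228 in *Ago2* KO/CLIPΔ, a log2 fold change of 1.12 ± 0.15 (limma adjusted p = 5.85e-05). From Rian, miR-341-3p was at 313, 258, 311, and 357 against 592, 674, 681, and 660, with a log2 fold change of 1.08 ± 0.17 (limma adjusted p = 0.00014).

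The other members with a log2 fold change of at least 1.03 were miR-300-5p (1.06), miR-434-5p (1.06), miR-127-5p (1.05), miR-369-5p (1.05), miR-380-3p (1.04), and miR-673-5p (1.03). Next in order came miR-370-3p (0.99), miR-300-3p (0.99), miR-758-3p (0.98), and miR-665-3p (0.98). The 3 members that did not pass were miR-433-3p (0.77), miR-673-3p (0.80), and miR-329-3p (0.83), which had larger standard errors and no overlap between the groups. The 1 tested member whose groups overlapped was miR-666-5p (0.72), whose call was lost without *Ago2* KO replicate 3 or *Ago2* KO/CLIPΔ replicate 1, 2, or 4 (limma adjusted p from 0.0517 to 0.0701). The call of miR-381-3p (0.82) was lost without any 1 of the 8 libraries compared, with log2 fold changes from 0.73 to 0.87 (limma adjusted p from 0.0651 to 0.137).

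Other imprinted miRNAs had small negative values in this comparison. All 199 tested miRNAs outside the locus, which include them, had a median log2 fold change of -0.21. Of miR-335, miR-296, miR-298, miR-675, and miR-483, which come from imprinted genes on other chromosomes, 6 arms were in the table and 5 passed the filter. Their log2 fold changes in *Ago2* KO/CLIPΔ against *Ago2* KO ran from -0.40 (miR-335-3p) to -0.11 (miR-298-5p), with limma adjusted p from 0.153 to 0.704. In CLIPΔ against WT miR-298-5p was 1.02 ± 0.22 higher on the log2 scale (limma adjusted p = 0.00687), against a median of -0.39 for the Dlk1-Dio3 members. The other arms went both ways and did not pass. They were miR-296-5p (0.67), miR-296-3p (0.40), miR-335-3p (-0.15), and miR-335-5p (-0.56), with limma adjusted p from 0.0966 to 0.649.

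The difference between the log2 fold changes of *Ago2* KO/CLIPΔ against *Ago2* KO and of CLIPΔ against WT was tested as an interaction. It was positive for all 50 members tested, with a median of 1.20 on the log2 scale, and 42 passed (limma). Of all miRNAs tested, 22.9% were called positive and 26.5% negative. Without a filter it was positive for all 79 members. It passed for 57 of them, of 81 miRNAs called positive and 130 called negative among 507. The arms miR-300-5p, miR-369-5p, miR-377-5p, miR-409-5p, miR-485-5p, miR-673-3p, and miR-1193-3p passed the filter only through the libraries without *Ago2*. The largest among the members were miR-127-5p (2.09 ± 0.27), miR-376b-5p (1.88 ± 0.31), miR-341-3p (1.86 ± 0.24), and miR-411-5p (1.78 ± 0.15). For miR-127-3p it was 1.31 ± 0.21. Of the abundant members, miR-543-3p did not pass (0.67 ± 0.32, limma adjusted p = 0.0932), but did without WT D (0.82) or without CLIPΔ D (0.92).

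**Figure D3:**
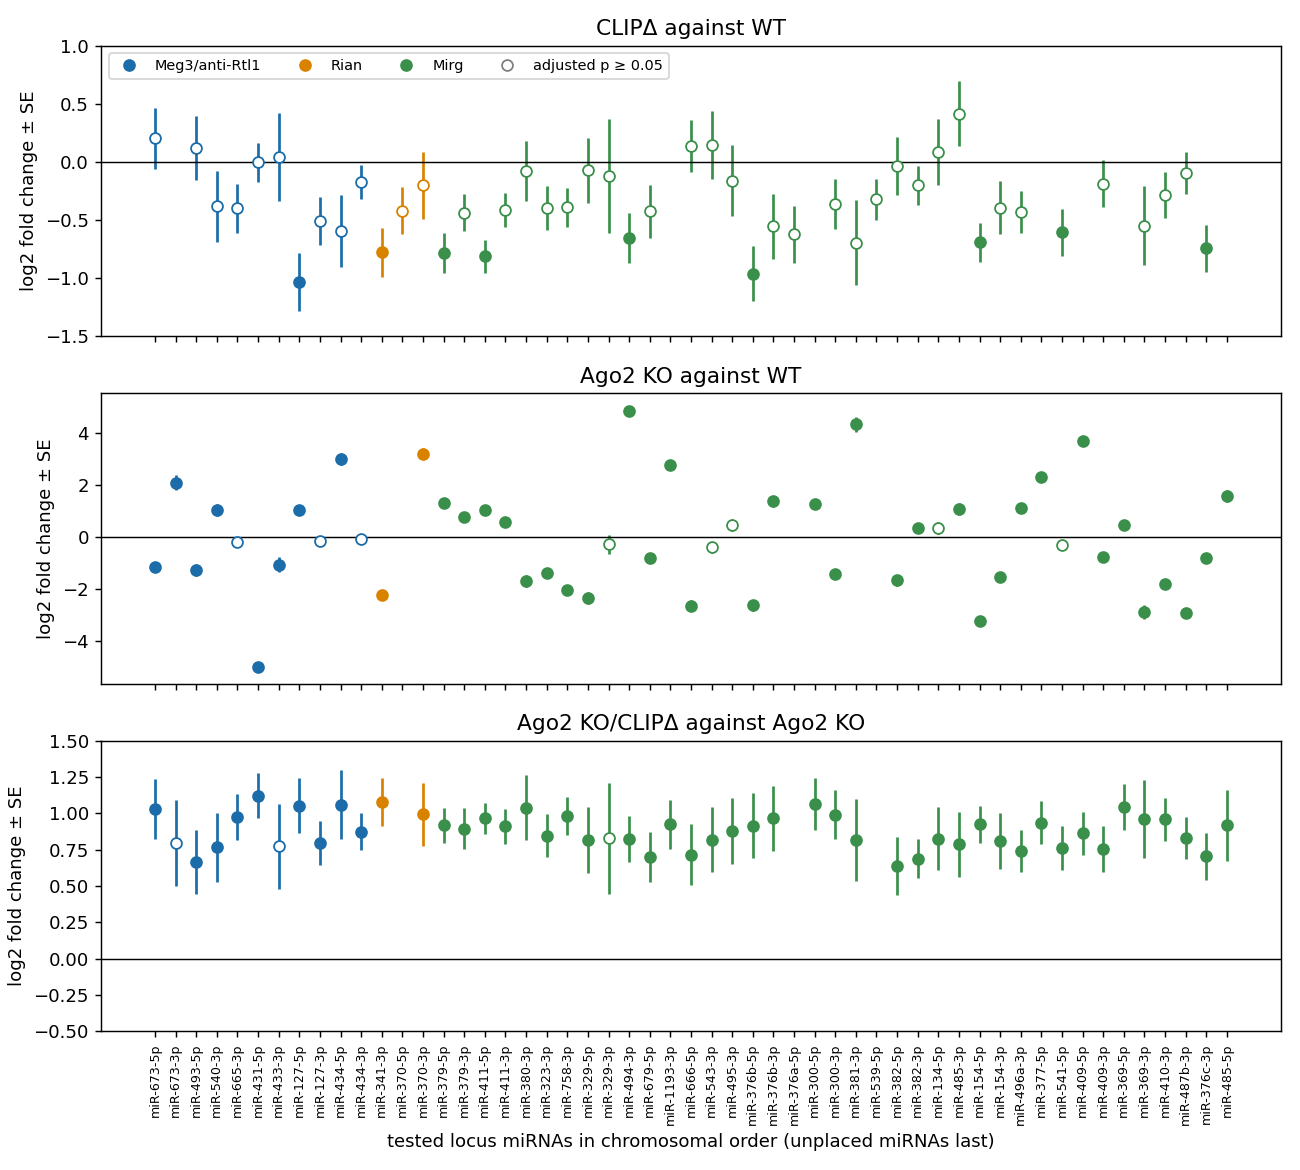
The panels give the log2 fold change ± SE (y axis) of each tested member in chromosomal order (x axis) for CLIPΔ against WT, *Ago2* KO against WT, and *Ago2* KO/CLIPΔ against *Ago2* KO, coloured by unit, with filled points for adjusted p under 0.05 and a y scale of its own in each panel. The first panel lies mostly under 0, the second is scattered between -5.00 and 4.88, and the third is a band between 0.64 and 1.12.

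Between libraries without and with *Ago2* the members differed in both directions. In *Ago2* KO against WT, 21 of the 50 members were higher and 21 lower, against 47.4% of all tested miRNAs called higher and 35.3% called lower. The median was -0.17 and the SD across members was 2.08, against a median of 0.37 and an SD of 2.00 for all miRNAs tested. Against CLIPΔ, *Ago2* KO/CLIPΔ had 28 members higher and 13 lower, against 47.8% and 35.3% of all tested miRNAs, with a median of 1.08. The filter averages all 16 libraries, so it favours members that are high without *Ago2*. Tested without a filter, 28 of the 79 members were higher and 33 lower in *Ago2* KO against WT, of 223 and 140 among 507 miRNAs. In *Ago2* KO/CLIPΔ against CLIPΔ they were 41 and 20, of 205 and 172. These 2 comparisons use different libraries, and across the 50 members their log2 fold changes had a correlation of 0.98, against 0.88 across all 249 miRNAs. The points share the 2 library sets, which differ in depth. Scaling by median-of-ratios moved the median of all miRNAs by -0.40 and -0.30 in these comparisons, and by -0.10 in CLIPΔ against WT. Under it, 18 members were called higher and 26 lower in *Ago2* KO against WT, of 102 and 103 miRNAs in all, and 27 and 18 in *Ago2* KO/CLIPΔ against CLIPΔ, of 108 and 100. The leading member miR-127-3p was at -0.14 ± 0.15 in *Ago2* KO against WT (limma adjusted p = 0.408), and was called lower under median-of-ratios scaling (-0.54, adjusted p = 0.00253) and with let-7 and miR-290 to miR-295 left out of the total (-0.44, adjusted p = 0.00959).

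The member that fell most was miR-431-5p, from the anti-Rtl1 transcript. It was at 3310, 3534, 3247, and 3250 in WT and at 3404, 2570, 3777, and 3715 in CLIPΔ, beside the values near 100 in *Ago2* KO given above. Its log2 fold change was -5.00 ± 0.15 in *Ago2* KO against WT and -3.88 ± 0.15 in *Ago2* KO/CLIPΔ against CLIPΔ (limma adjusted p = 3.63e-14 and 2.46e-13). Also lower in *Ago2* KO than in WT were miR-154-5p (-3.24), miR-487b-3p (-2.95), miR-369-3p (-2.89), miR-666-5p (-2.65), and miR-376b-5p (-2.63), with limma adjusted p from 6.63e-13 to 2.09e-08.

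The member that rose most was miR-494-3p, of the Mirg unit. It was at 136, 127, 143, and 187 in WT and at 4424, 4614, 4203, and 4116 in *Ago2* KO. All 8 libraries without *Ago2* lay at or above 4116 and all 8 with it at or below 187. Its log2 fold change was 4.88 ± 0.16 in *Ago2* KO against WT and 6.36 ± 0.16 in *Ago2* KO/CLIPΔ against CLIPΔ (limma adjusted p = 3.63e-14 and 9.05e-16). Also higher in *Ago2* KO than in WT were miR-381-3p (4.35), miR-409-5p (3.69), miR-370-3p (3.22), miR-434-5p (3.02), and miR-1193-3p (2.77), with limma adjusted p from 6.63e-13 to 2.67e-09. The arms miR-377-5p (3.76) and miR-673-3p (3.18) were also among those that rose most in *Ago2* KO/CLIPΔ against CLIPΔ. Of these, miR-409-5p, miR-1193-3p, miR-377-5p, and miR-673-3p were under the filter in the WT and CLIPΔ libraries and passed it only through those without *Ago2*. In the other direction, miR-376a-5p (-3.51 in *Ago2* KO against WT), miR-539-5p (-3.48), and miR-370-5p (-1.32) passed it in WT and CLIPΔ but not over 16 libraries.

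Near-identical members moved apart in one pair and together in another. The arms miR-300-3p and miR-381-3p, with the 3 differing bases shown above, lie in neighbouring hairpins of the Mirg unit. The arm miR-381-3p was at 464, 585, 401, and 283 in WT and at 8580, 7119, 9258, and 9410 in *Ago2* KO. The arm miR-300-3p was at 3184, 3649, 2822, and 2264 in WT and at 1062, 1002, 1151, and 1099 in *Ago2* KO, a log2 fold change of -1.45 ± 0.17 (limma adjusted p = 4.29e-07). The pair changed order, and in neither did the groups overlap. By contrast, miR-379-3p and miR-411-3p, with 2 differing bases and 1 seed, rose by 0.77 ± 0.14 and 0.57 ± 0.12 on the log2 scale (limma adjusted p = 6.16e-05 and 0.000329), though miR-411-3p gave 0.17 under median-of-ratios scaling (limma adjusted p = 0.212). How reads that match both of such a pair were counted is not given in the sources used here. The 20 members that rose in *Ago2* KO and had a sequence began with U in 11 and ended with C in 8, and the 19 that fell began with U in 7 and ended with C in 3. The 8 not called began with U in 3 and ended with C in 0. The last base was U in 8, 10, and 7 of these sets, and the first was A in 6, 6, and 5. A link of end bases to the change was not tested, and the shares over all miRNAs were not taken.

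The arms of single hairpins also moved apart. For 32 member hairpins with both arms in the table and a summed mean of at least 100, the log2 ratio of the 5p to the 3p arm was taken in each library, which leaves out the total of the library. In *Ago2* KO against WT, 22 of the 32 ratios did not overlap, against 73.1% of the 134 hairpins with both arms in the whole table, and the median size of the change was 2.33 for members and 1.70 for all. When *Ago2* KO/CLIPΔ was set against CLIPΔ, 26 of the 32 did not overlap, against 77.6% of all. These shares of the cluster were a little under those of the whole table in the first comparison and a little over them in the second.

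The comparisons between libraries of nearer depth gave small changes of the ratios. In CLIPΔ against WT, 4 of the 32 ratios did not overlap, against 5.97% of all, and the median size was 0.30. In *Ago2* KO/CLIPΔ against *Ago2* KO, every one of the 32 ratios overlapped, against 2.24% of all hairpins without overlap, and the median size was 0.13. The arms of a hairpin moved by like amounts there, with the medians of 0.92 for 5p and 0.84 for 3p given above.

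**Figure D4:**
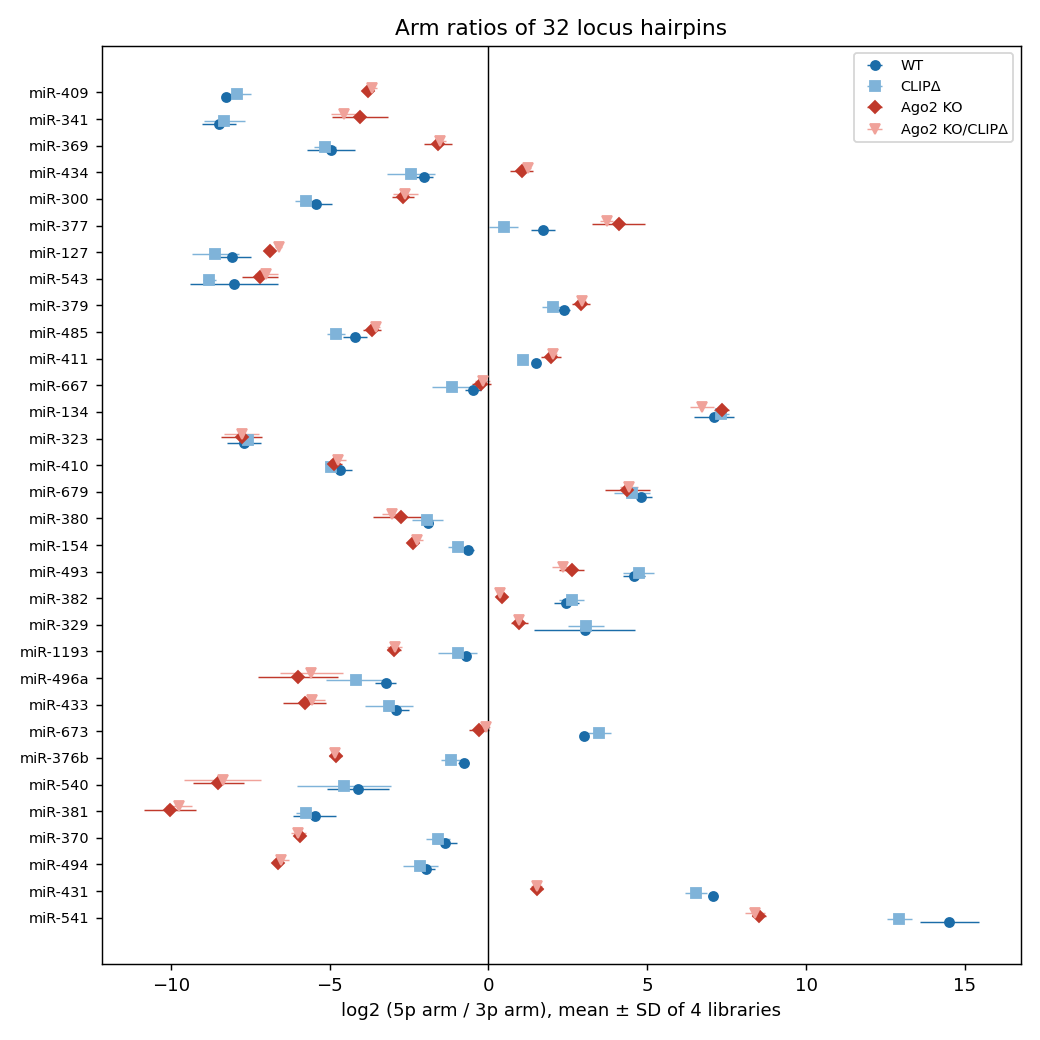
The plot gives the log2 ratio of the 5p arm to the 3p arm (x axis, mean ± SD of 4 libraries) for 32 member hairpins (y axis), ordered by their change from WT to *Ago2* KO. The *Ago2* KO and *Ago2* KO/CLIPΔ points (red) lie close to each other and, for most hairpins, far from the WT and CLIPΔ points (blue), with miR-434 and miR-673 crossing 0.

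The dominant arm of 2 of the 32 hairpins, miR-434 and miR-673, changed between WT and *Ago2* KO, against 15.7% of the 134 hairpins of the table. The arm miR-434-5p was at 1041, 1002, 920, and 617 in WT and at 7225, 6095, 7911, and 7293 in *Ago2* KO, whereas miR-434-3p had means of 3568 and 3456. The mean log2 ratio of miR-434 was -2.02 in WT and 1.05 in *Ago2* KO, and that of miR-673 was 3.00 and -0.30. The same 2 switched in *Ago2* KO/CLIPΔ against CLIPΔ, against 17.2% of the 134. The hairpin miR-541 had the largest change of ratio among the members, from 14.5 in WT to 8.53 in *Ago2* KO, with 5p still the dominant arm. Its rare arm miR-541-3p was at 1.1, 1.8, 0.4, and 0.9 in WT and at 56.3, 54.1, 42.9, and 43.7 in *Ago2* KO, and its level was under the filter. The ratio fell by 5.53 in miR-431 and by 4.68 in miR-494, and rose by 4.48 in miR-409 and by 4.45 in miR-341.

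The long RNAs of the locus were measured in the RNA-seq libraries. Meg3, an RNA of the maternal copy, was at 147 and 132 TPM in WT and at 82.3 and 68.7 TPM in CLIPΔ. It was at 29.1, 27.9, 23.3, and 27.3 TPM in *Ago2* KO and at 39.3, 50.0, 73.1, and 66.7 TPM in *Ago2* KO/CLIPΔ. The 4 groups did not overlap except that 1 *Ago2* KO/CLIPΔ library lay above the lower CLIPΔ library. Mirg, the RNA for which the largest unit is named, was at 26.4 and 25.1 TPM in WT and at 13.3 and 14.7 TPM in CLIPΔ. It was at 7.72, 7.41, 5.64, and 6.93 TPM in *Ago2* KO and at 12.2, 13.7, 14.2, and 13.5 TPM in *Ago2* KO/CLIPΔ.

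**Figure D5:**
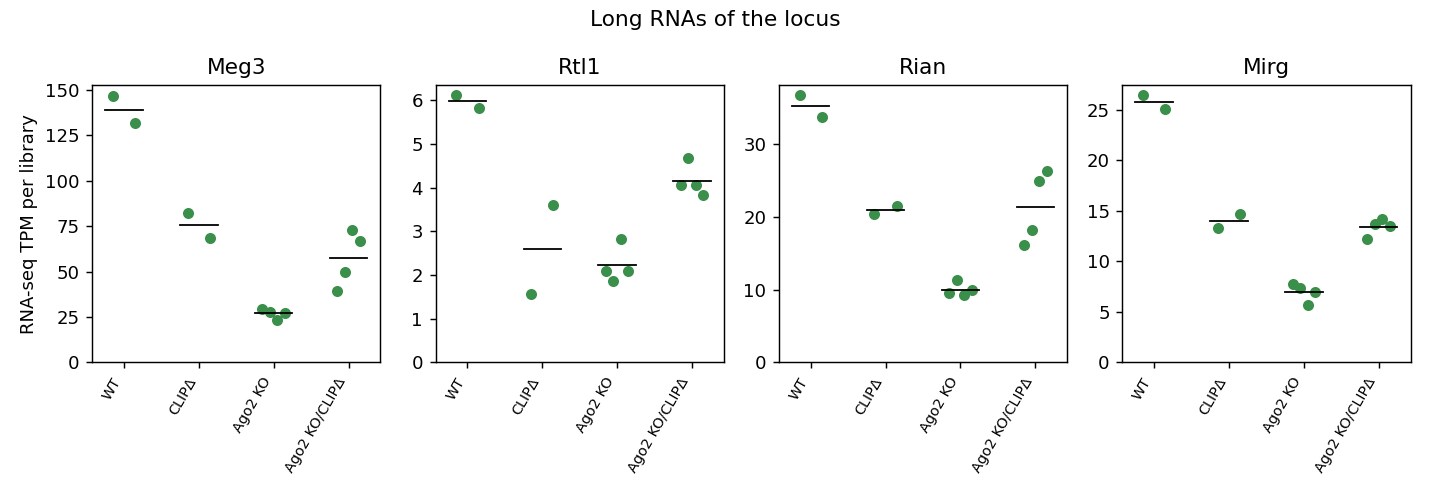
The panels give the RNA-seq level (y axis, TPM) of Meg3, Rtl1, Rian, and Mirg in each library by genotype (x axis), with a point per library and a line at the mean. All 4 RNAs are highest in WT and higher in *Ago2* KO/CLIPΔ than in *Ago2* KO in every library.

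In CLIPΔ against WT, limma on log2(TPM + 1) with 2 libraries a group called 0% of 11642 genes, and 604 genes had an unadjusted p under 0.05. Of the 6 locus genes 5 were tested, and 4 of them had an unadjusted p under 0.05. The log2 fold changes were -0.88 ± 0.18 for Meg3, -0.73 ± 0.17 for Rian, -0.84 ± 0.17 for Mirg, and -1.02 ± 0.32 for Rtl1, with limma adjusted p from 0.570 to 0.851.

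In *Ago2* KO/CLIPΔ against *Ago2* KO, 3 of the 6 locus genes rose in the limma fit over 12 libraries, against 0.275% of 11287 genes called higher and 0.602% called lower. These were the 3 maternal RNAs, Meg3 (1.03 ± 0.17, adjusted p = 0.0158), Rian (1.00 ± 0.14, adjusted p = 0.00826), and Mirg (0.87 ± 0.10, adjusted p = 0.00215), as limma log2 fold changes. The call of Meg3 was lost without any 1 of *Ago2* KO replicates 1, 2, and 3 or *Ago2* KO/CLIPΔ replicates 3 and 4, at log2 fold changes from 0.90 to 1.07 (limma adjusted p from 0.0547 to 0.0642). Their changes stood beside a median of 0.87 for the miRNAs in the same comparison. Rtl1 gave 0.68 ± 0.16 (limma adjusted p = 0.0784), Dlk1, a growth regulator of the paternal copy, 0.00 ± 0.15, and Dio3, a deiodinase, 0.07 ± 0.30. Of the 6 genes flanking the locus (Begain, Wdr25, Wars, Yy1, Ppp2r5c, and Dync1h1), 4 were tested and none passed. An unadjusted p under 0.05 (limma) was found for 1 of the 4, against 1243 of all 11287 genes.

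The *Ago2* KO/CLIPΔ libraries were not alike in this respect. Meg3 was lower in replicates 1 and 2 than in replicates 3 and 4. Within replicates 1 and 2 its log2 fold change against *Ago2* KO was 0.62, and within replicates 3 and 4 it was 1.44. Mirg gave 0.70 and 1.03 in the same split. With the replicate number as a block, limma called Rtl1 too (adjusted p = 0.0157), against 2.43% of genes called higher and 4.91% called lower. In only 2 of the 4 RNA-seq pairs was the same number the best correlated, so this pairing is uncertain.

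In *Ago2* KO against WT the maternal RNAs were lower, and so were the values of Rtl1, a gene of the paternal copy. Whether the counting used strand is not given in the sources used here. Reads of Rtl1 therefore cannot be told apart from reads of the maternal transcript antisense to it, here or in the other comparisons. Meg3 (-2.33 ± 0.20), Mirg (-1.76 ± 0.12), Rian (-1.72 ± 0.17), and Rtl1 (-1.12 ± 0.19) fell on the log2 scale (limma adjusted p from 8.77e-06 to 0.000683), while Dlk1 rose by 0.57 ± 0.18 (limma adjusted p = 0.0190) at levels between 0.65 and 2.35 TPM. Without WT replicate 1 Dlk1 gave 0.36 (limma adjusted p = 0.216). Dio3 gave -0.83 (limma adjusted p = 0.0752), between 55.8 and 16.3 TPM in the 2 WT libraries, and -1.69 without WT replicate 2 (limma adjusted p = 0.000796). The background was 14.0% of genes called higher and 42.4% called lower, 1579 and 4785 genes, and median-of-ratios scaling, which removed a median shift of -0.26 over all genes, gave 3027 and 2994. Under that scaling Meg3 was -2.04 and Mirg -1.49. The summed miRNAs of the locus were at 13.6% of the pool in *Ago2* KO and at 12.9% in WT, and their difference turned from 0.624 to -3.60 points with the let-7 family and miR-290 to miR-295 left out of the total (unadjusted exact permutation p = 0.0286). The median log2 fold change of the members was -0.17, and -0.57 under median-of-ratios scaling. The RNA-seq and small-RNA-seq libraries are different libraries, and the small-RNA values are shares of a pool.

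When *Ago2* KO/CLIPΔ was compared with CLIPΔ, Meg3 (-0.43 ± 0.20), Rian (0.01 ± 0.17), and Mirg (-0.06 ± 0.12) did not pass (limma adjusted p from 0.0942 to 0.979), and Mirg turned to 0.22 under median-of-ratios scaling. Rtl1 (0.58) and Dlk1 (0.87) rose and Dio3 fell (-1.71), with limma adjusted p of 0.0246, 0.00231, and 0.00266, against 12.8% of genes called higher and 42.1% called lower. Median-of-ratios scaling gave 2947 genes called higher and 2917 called lower here, in place of 1446 and 4755. Without CLIPΔ replicate 1 Rtl1 gave 0.16 (limma adjusted p = 0.467), and without *Ago2* KO/CLIPΔ replicate 2 it gave 0.54 (0.0554 by limma). In the same pair of genotypes the summed miRNAs of the locus differed by the ratio of 2.49 given above.

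Genes that set or keep imprints were followed as a list of 16, of which 15 were tested. Between *Ago2* KO/CLIPΔ and *Ago2* KO none passed, and 2 of the 15 had an unadjusted p under 0.05 (limma), against 1243 of all 11287 genes. Under median-of-ratios scaling 0 of the 15 had one. Among the 15, Zfp57, a zinc-finger protein that binds methylated imprints, gave -0.28 ± 0.11 and Dnmt3l, the cofactor of the de novo DNA methyltransferases, -0.33 ± 0.13. Under the replicate block, with its uncertain pairing, both were called lower (limma adjusted p = 0.0346 and 0.0153), against 4.91% of all genes. In *Ago2* KO against WT, 1 rose and 10 fell, against 14.0% of all genes called higher and 42.4% called lower. Median-of-ratios scaling gave 2 and 8, against 26.8% and 26.5%. In *Ago2* KO/CLIPΔ against CLIPΔ 1 rose and 8 fell, against 12.8% and 42.1%. Dnmt3l rose from 156 and 202 TPM to between 304 and 344 TPM (0.85 ± 0.16, limma adjusted p = 0.00116). Among those that fell were the DNA demethylases Tet1 (-1.52) and Tet2 (-0.98), the Polycomb methyltransferase Ezh2 (-1.15) and its partner Jarid2 (-1.82).

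Dppa3, also called Stella, is a factor of early embryos that bears on DNA methylation at this locus. It was at 28.3 and 18.8 TPM in WT, at 269 and 117 TPM in CLIPΔ, between 1.28 and 3.39 TPM in *Ago2* KO, and between 1.81 and 2.38 TPM in *Ago2* KO/CLIPΔ. The CLIPΔ libraries were the highest and the libraries without *Ago2* the lowest. Its log2 fold change in CLIPΔ against WT was 2.89 ± 0.44 (limma adjusted p = 0.435), and in *Ago2* KO against WT -2.94 ± 0.32 (limma adjusted p = 6.34e-05). Between *Ago2* KO and *Ago2* KO/CLIPΔ, the pair in which Meg3, Rian, and Mirg rose, it gave -0.05 ± 0.26 (limma adjusted p = 0.974).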

How the data were processed

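Total RNA of the mESCs was used for 16 small-RNA-seq and 12 RNA-seq libraries, and groups were taken from the sample labels. Reads had been aligned by the authors with HISAT2 2.1.0 (build mm10) and counted with HTSeq, and both tables were deposited as TPM, with features above 0 in all libraries. The processing notes of the submitters also list CASAVA 1.4 and cutadapt without their roles. The CLIP peaks were not used.

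The members and gene lists were chosen with earlier results of these data known. The members named were the 8 highest by mean level, every member called in a comparison with 12 or fewer calls and otherwise the 12 with the largest change, and both arms of the 4 most abundant hairpins. miR-433-3p, miR-329-3p, miR-434-3p, miR-485-3p, and miR-10b-5p were named after their values were seen. For miRNAs, the deposited TPM were rescaled to sum to 1000000 per library. The size of 1 read was chosen in each library so that the lowest values of members placed by RefSeq were whole multiples. With it, 100% of the values of these members under 200 reads were whole (tolerance 0.02 reads). This gave the inferred depths, with an assumed length for miRNAs without a known sequence. limma 3.58.1 (R 4.3.3), with Benjamini-Hochberg adjustment over all features tested and a threshold of 0.05, was run on log2(value + 1) for miRNAs averaging 100 or more in the deposited values and for genes averaging 1 TPM or more. Fold changes on this scale understate changes of low members. CLIPΔ against WT was fitted on its own libraries and the other comparisons in a model over all libraries. Single summed values were compared by exact permutation tests (scipy 1.17.1). The tests were tried on simulated data.

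The table names WT and CLIPΔ small-RNA libraries by letter. Same-letter libraries had correlated deviations from their group means (r from 0.35 to 0.74, and -0.17 on average for other pairs). In 4 of 4 letters the partner gave the highest correlation. Same-numbered *Ago2* KO and *Ago2* KO/CLIPΔ libraries correlated less (small RNA 0.16 to 0.52, RNA-seq 0.32 to 0.43, other pairs -0.11 and -0.13 on average). There the partner was highest in 0 of 4 small-RNA pairs and in 2 of 4 RNA-seq pairs. Both sets were taken as paired in the replicate block only, from the data and not from the labels, and the pairing by number is uncertain. The main limma fits and the permutation tests were unpaired. A column code of both tables was read as CLIPΔ by elimination, since it stands where the labels have that deletion.

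Alternatives were other filters, pseudocounts, totals, scalings, voom weights, the replicate block, and each library left out. Median-of-ratios scaling and RNA-seq replicates 1 and 2 or 3 and 4 alone were added after the data were seen.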

Additional observations from a re-analysis of the deposited data

Results flagged for a closer look

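The change from *Ago2* KO to *Ago2* KO/CLIPΔ differed from that from WT to CLIPΔ in 42 of the 50 members tested (limma interaction). Of all miRNAs tested, 22.9% were called positive and 26.5% negative. Among the members described in the report, the difference of the log2 fold changes was 1.31 for miR-127-3p, 1.36 for miR-541-5p, 1.70 for miR-379-5p, 0.94 for miR-409-3p, 1.78 for miR-411-5p, 1.51 for miR-381-3p, and 1.66 for miR-434-5p. It was 2.09 for miR-127-5p, 1.88 for miR-376b-5p, 1.86 for miR-341-3p, 1.45 for miR-376c-3p, 1.62 for miR-154-5p, 1.48 for miR-494-3p, and 1.12 for miR-431-5p. It was 0.69 for miR-409-5p, 1.19 for miR-370-3p, 0.92 for miR-487b-3p, 1.51 for miR-369-3p, 1.15 for miR-1193-3p, 1.45 for miR-377-5p, 1.07 for miR-673-3p, and 0.83 for miR-673-5p. It was 1.72 for miR-300-5p, 1.35 for miR-300-3p, 1.76 for miR-369-5p, 1.11 for miR-380-3p, 1.37 for miR-758-3p, 1.37 for miR-665-3p, 1.52 for miR-376b-3p, 1.33 for miR-379-3p, and 1.32 for miR-411-3p. With 1 library left out, the call of miR-673-3p was lost in most fits, among them at least 1 from each genotype (limma adjusted p from 0.0573 to 0.0838). The call of miR-673-5p was lost without *Ago2* KO replicate 3 (limma adjusted p = 0.0522).

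In 152 groups of 4 libraries, 11 held a library far from the other 3 by Dixon's test, where chance gives about 1 in 20. WT D was far off for miR-127-3p (56203 rescaled TPM) and miR-666-5p (209.4). CLIPΔ D was far off for miR-379-5p (2473), and CLIPΔ B for miR-370-3p (180.4) and miR-666-5p (121.7). *Ago2* KO replicate 2 was far off for miR-409-5p (489.1) and miR-376b-3p (1318), and replicate 3 for miR-758-3p (349.3). *Ago2* KO/CLIPΔ replicate 3 was far off for miR-379-5p (26678), miR-543-3p (4687), and miR-666-5p (31.69).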

How the results depend on the processing

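Depth limits the low members of the libraries without *Ago2*, and WT and CLIPΔ RNA-seq had 2 libraries each. In CLIPΔ against WT, 9 members were called lower, of 19 miRNAs lower and 44 higher among 227. The model over 16 libraries called 19 members lower, of 46 lower and 69 higher among 249. Median-of-ratios scaling called 13 lower, of 25 lower and 38 higher among 227. The replicate block called 24 lower and 1 higher, of 48 lower and 77 higher among 227. With 1 library left out, 5 (without WT B) to 12 (without CLIPΔ B) were lower. All miRNAs called were then 14 and 22 lower, and 41 and 48 higher. In *Ago2* KO against WT, 33 members were lower without a filter, of 140 miRNAs lower and 223 higher among 507. With a filter at 10 there were 32, of 135 lower and 195 higher among 424. Those lower in *Ago2* KO/CLIPΔ against CLIPΔ were 20 in both. All miRNAs called there were 172 lower and 205 higher without a filter, and 154 lower and 186 higher with it. The summed share of CLIPΔ minus WT was -3.69 to -2.38 points with 1 library left out, and that of *Ago2* KO minus WT 0.230 to 1.36, -3.60 without let-7 and miR-290 to miR-295 in the total, and 1.07 without miR-127-3p (exact permutation p = 0.0286 for each of these 2).

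With the replicate block, 6 locus and regulator genes were called in CLIPΔ against WT (Meg3, Rian, Mirg, Zfp57, and Dnmt3l lower, Dppa3 higher, of 191 genes higher and 142 lower in all), where 2 pairs are too few to take as paired, and 0 to 2 with 1 library left out. In *Ago2* KO/CLIPΔ against *Ago2* KO, 6 of 21 were called with the block (4 higher, 2 lower), 14 in replicates 1 and 2 (5 higher, 9 lower, against 5.02% and 33.2% of all 10874 genes), and 11 in replicates 3 and 4 (8 higher, 3 lower, against 23.0% and 15.4% of 11022). There the block changed the member calls from 47 of 50 to 48 of 48, though the same number was the best correlated in 0 of 4 small-RNA pairs. With the block, 50 of all 232 miRNAs were called higher and 94 lower.

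Some values changed sign. In CLIPΔ against WT with 1 library left out, log2 fold changes ran from -0.10 to 0.34 for miR-543-3p, -0.063 to 0.12 for miR-431-5p, -0.32 to 0.052 for miR-370-3p, -0.19 to 0.0094 for miR-487b-3p, and -0.27 to 0.084 for miR-380-3p. miR-431-5p was 0.014 without let-7 and miR-290 to miR-295 in the total and 0.0065 with voom weights. miR-127-3p ran from -0.22 to 0.031 in *Ago2* KO against WT, and was called lower at -0.54 under median-of-ratios scaling and at -0.44 with the total without those miRNAs (limma adjusted p = 0.00253 and 0.00959). In *Ago2* KO/CLIPΔ against CLIPΔ, median-of-ratios scaling and the total without those miRNAs gave -0.12 and -0.21 for miR-409-3p and -0.037 and -0.12 for miR-543-3p, Mirg was 0.22 under that scaling and -0.12 to 0.011 with 1 library left out, and Rian ran from -0.10 to 0.13. Dio3, at -0.83 in *Ago2* KO against WT, ran from -1.69 to 0.027. In *Ago2* KO/CLIPΔ against *Ago2* KO, Dlk1 ran from -0.077 to 0.088 and was -0.038 in replicates 1 and 2, and Dio3 ran from -0.081 to 0.19 and was -0.081 in replicates 3 and 4. The cause of these changes was not tested.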
